A study of Mus musculus with 6 samples.

Results

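The 10 genes described here carry the endosomal route of nucleic acid sensing, from the Toll-like receptors TLR7 and TLR9 to the interferon regulatory factors (IRFs). They were chosen by symbol from the 23420 gene symbols of the count files: Tlr7, Tlr9, Unc93b1, Slc15a4, Myd88, Irak4, Traf3, Irf3, Irf5 and Irf7. All 10 were present and all 10 passed the filter on low counts. They were followed in dendritic cells (DCs) sorted from the thymus of wild-type mice, in 3 groups of 2 libraries. YG+ plasmacytoid DCs (pDCs, CD11c low and B220+) carried yellow-green microspheres injected into MC38 tumours, a mouse colon carcinoma line, that had grown for 12 days, and were sorted 2 days later. PBS pDCs were sorted by the same CD11c and B220 gate, without the YG condition, from mice labelled as PBS for 2 weeks. PBS Sirpa+ DCs (CD11c high and Sirpa+, a conventional DC subset) came from mice with the same PBS label. A treatment time of 2 weeks is recorded for the YG+ pDC libraries as well. The labels give neither strain nor age. Microsphere uptake, the YG gate, the tumour and the PBS label of the other groups all set the YG+ pDCs apart from both and cannot be told apart. Separate animals are not named for any library, and p-values here reflect the spread between libraries, which may be technical.

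TLR7 and TLR9 sense single-stranded RNA and unmethylated CpG DNA inside endosomes. UNC93B1 carries them there from the endoplasmic reticulum, and the histidine transporter SLC15A4 is needed for their signalling. The adaptor MYD88 and the kinase IRAK4 pass the signal on, TRAF3 and IRF7 lead to type I interferon, and IRF5 to inflammatory cytokines. pDCs are known for strong expression of this route and for the large amounts of interferon they make when it is triggered.

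Gene totals ran from 177844 counts in PBS pDC replicate 1 to 713966 in YG+ pDC replicate 1, which were 0.842% and 3.36% of uniquely placed reads. A count of 0 allowed up to 4.21 to 19.1 CPM (the normalised read count, scaled to a library total of 1000000) in a library, at 3 counts, and these floors cover counting error only. PBS pDC replicate 1 stood apart: across genes, which are not independent replicates, its Pearson correlation of log2 CPM with the YG+ pDC libraries was 0.637 and 0.700, against 0.863 and 0.897 for its partner, while both PBS pDC libraries were at 0.494 to 0.590 with the Sirpa+ DC libraries. The summed level of 10 pDC markers was 4416 to 6370 CPM in the 4 pDC libraries and 757 and 845 CPM in the Sirpa+ DC libraries, and that of 8 Sirpa+ DC markers was 733 to 1109 and 1443 to 1954 CPM. Sirpa+ DCs also held 1951 and 1856 CPM of 8 conventional type 1 DC markers, 6199 and 4919 CPM of 8 mature DC markers and 3525 and 5806 CPM of 8 macrophage and monocyte markers. The pDC libraries held 389 to 819.5, 578 to 1863 and 176 to 1537 CPM of these lists. Of 8 B cell markers, pDC libraries held 692 to 817 CPM and Sirpa+ DCs 25.4 and 19.9 CPM, with Ms4a1, Pax5 and Blk at 0 in the latter. Of 9 T cell and thymocyte markers they held 197 to 338 CPM and 50.8 and 31.9 CPM, with Cd3g at 0 in all 6. Some sums rest largely on 1 gene. Wdfy4, of the type 1 list, averaged 1289 CPM in Sirpa+ DCs. Cd8b1, of the T cell list, averaged 186 and 230 CPM in YG+ and PBS pDCs. Other genes went against their list. Cd8a, of the type 1 list, averaged 93.5, 60.2 and 7.10 CPM in YG+ pDCs, PBS pDCs and Sirpa+ DCs. In that order Irf4 and Clec10a, of the Sirpa+ DC list, averaged 281, 191 and 163 CPM and 114, 137 and 37.1 CPM. What cells the sums stand for was not tested.

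Counts of Tsix, the antisense partner of Xist, were 2.70 to 20.5 times those of Xist in these libraries. How counting treated strand is not stated in the labels, so reads of a gene and of its opposite-strand partner cannot be told apart. Of the 10 genes, 6 have exons under an exon of the other strand, over 14.1% of the exon length in Irf5 (Tnpo3), 11.3% in Myd88 (Acaa1a), 8.04% in Slc15a4 (Gm43474, not analysed here), 7.87% in Irak4 (Twf1), 2.56% in Irf3 (Bcl2l12) and 1.19% in Irf7 (Phrf1). Tlr7, Tlr9, Unc93b1 and Traf3 have none in GENCODE M21 (GRCm38). Whether reads were counted on the intended strand was not tested, and gene counts were only 0.842% to 3.36% of uniquely placed reads. That question bears on the levels of all 10 genes, with or without an opposite-strand partner.

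No member was called in any of the 3 comparisons, so the values below describe levels and their spread. In PBS pDCs against PBS Sirpa+ DCs, edgeR's quasi-likelihood test called 0 of 10 members at an adjusted p under 0.05, where 11.4% of 8141 tested genes were called. It called 0 of 10 in YG+ pDCs against PBS Sirpa+ DCs, where 7.16% of genes were called, and 0 of 10 in YG+ pDCs against PBS pDCs, where 0% were. At an unadjusted p under 0.05 the counts of members were 5, 2 and 2 in that order, beside 24%, 22.8% and 11.4% of all tested genes, so that 2 of 10 is near the background. DESeq2 and limma-voom called 0 members in each, although DESeq2 gave an adjusted p for only 4 members in the last. The median log2 fold change of the members was 0.57, 0.055 and 0.094, beside 0.080, 0.044 and 0.076 over all tested genes. Bulk RNA cannot tell fewer cells of a type from less RNA per cell.

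**Figure D1:**
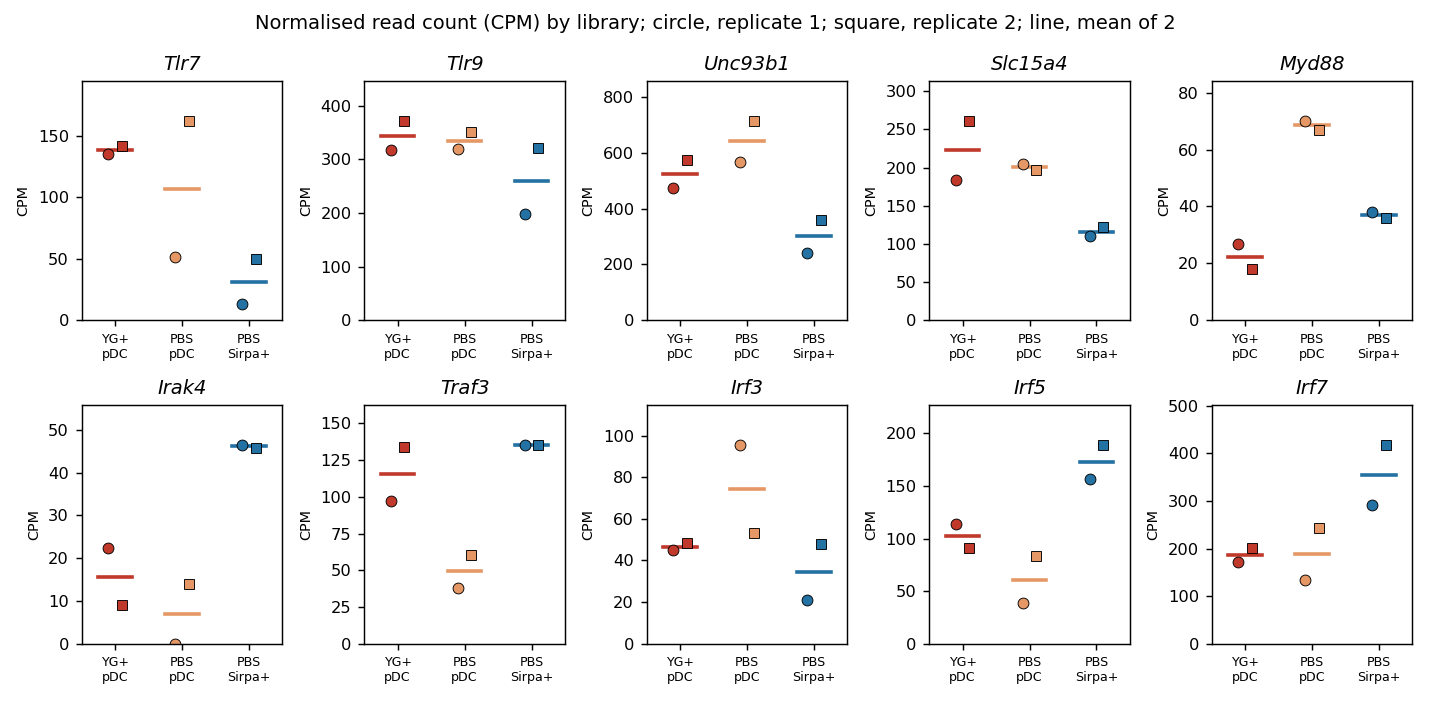
Normalised read count (CPM, linear axis from 0) of each of the 10 genes in the 6 libraries, circles for replicate 1, squares for replicate 2 and a line at the mean of 2. Tlr7, Unc93b1 and Slc15a4 were lower in both Sirpa+ DC libraries than in every pDC library, whereas Irf5, Irf7, Irak4 and Traf3 were highest in the Sirpa+ DC group.

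The receptor Tlr7 (chromosome X, 167304929 to 167330558, minus strand) was 135 and 141 CPM in YG+ pDCs (96 and 79 counts), 51.0 and 162 CPM in PBS pDCs (8 and 70 counts) and 12.7 and 49.8 CPM in Sirpa+ DCs (3 and 25 counts). Every pDC library lay above both Sirpa+ DC libraries, but PBS pDC replicate 1 only narrowly, and the first Sirpa+ DC library was at its floor. The log2 fold change of PBS pDCs over Sirpa+ DCs was 1.71 ± 0.64 (SE, 95% interval 0.32 to 3.11, edgeR adjusted p = 0.119), and that of YG+ pDCs over Sirpa+ DCs was 1.99 ± 0.62 (0.63 to 3.35, adjusted p = 0.0782). With no filter on low counts Tlr7 passed in the first (adjusted p = 0.0435). Without PBS pDC replicate 1, where the lone library is assumed to vary like the others, it passed in both, at adjusted p = 0.00948 and 0.00714. Leaving out other libraries moved PBS pDCs over Sirpa+ DCs to 0.46 without PBS pDC replicate 2 (edgeR adjusted p = 0.720), 1.17 without Sirpa+ DC replicate 1 (0.432) and 3.16 without Sirpa+ DC replicate 2 (0.125). YG+ pDCs over Sirpa+ DCs moved to 1.43 and 3.41 without Sirpa+ DC replicate 1 and 2 (edgeR adjusted p = 0.439 and 0.113), and missed the threshold without either YG+ pDC library (0.161 and 0.232). In the YG+ against Sirpa+ comparison it also passed without PBS pDC replicate 2 (adjusted p = 0.00846), with no filter on low counts (0.00851), in a fit of only the 4 libraries compared (0.0117) and with the replicate number as a block (0.0268). Between YG+ and PBS pDCs the log2 fold change was 0.28 ± 0.56 (-0.96 to 1.51, adjusted p = 0.895) and the groups overlapped. B cells are known to express Tlr7 too. The part of the B cell markers in its level was not tested.

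Tlr9 (chromosome 9, 106222598 to 106226883, plus strand), the CpG DNA receptor, had groups that overlapped throughout. It was 317 and 372 CPM in the YG+ pDCs, 319 and 352 CPM in PBS pDCs and 199 and 321 CPM in Sirpa+ DCs, from 47 to 226 counts a library. The second Sirpa+ DC library lay inside the range of the pDC libraries, so no group was separate. Over Sirpa+ DCs the log2 fold change was 0.36 ± 0.42 in PBS pDCs (-0.56 to 1.28, edgeR adjusted p = 0.675) and 0.40 ± 0.41 in YG+ pDCs (-0.51 to 1.30, adjusted p = 0.614). The intervals still allow more than a doubling, so equal expression was not shown. YG+ and PBS pDCs differed by 0.036 ± 0.41 (-0.87 to 0.95, adjusted p = 0.985).

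For the chaperone of both receptors and for the transporter, as for Tlr7, every pDC library lay above both Sirpa+ DC libraries. Unc93b1 (chromosome 19, 3935186 to 3949340, plus strand) was 473 and 574 CPM in the YG+ pDCs, 568 and 715 CPM in PBS pDCs and 241 and 359 CPM in Sirpa+ DCs. The lowest pDC library, a YG+ one, was still well above the higher Sirpa+ DC library. The log2 fold change over Sirpa+ DCs was 1.09 ± 0.42 in PBS pDCs (0.16 to 2.02, edgeR adjusted p = 0.136, with 0.0435 without PBS pDC replicate 1 and 0.185 to 0.468 without any other library) and 0.79 ± 0.42 in YG+ pDCs (-0.13 to 1.72, adjusted p = 0.292). YG+ and PBS pDCs overlapped, at -0.30 ± 0.42 (-1.21 to 0.62, adjusted p = 0.827). Slc15a4 (chromosome 5, 127595664 to 127632897, minus strand) was 184 and 261 CPM in the YG+ pDCs, 204 and 197 CPM in PBS pDCs and 110 and 122 CPM in Sirpa+ DCs. Again each pDC library exceeded both Sirpa+ DC libraries, with 1.72-fold the level in PBS pDCs (log2 0.78 ± 0.42, -0.13 to 1.69, edgeR adjusted p = 0.285) and 1.91-fold in YG+ pDCs (0.93 ± 0.40, 0.045 to 1.82, adjusted p = 0.198). The difference between the pDC groups was 0.15 ± 0.40 (-0.72 to 1.03, adjusted p = 0.920).

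**Figure D2:**
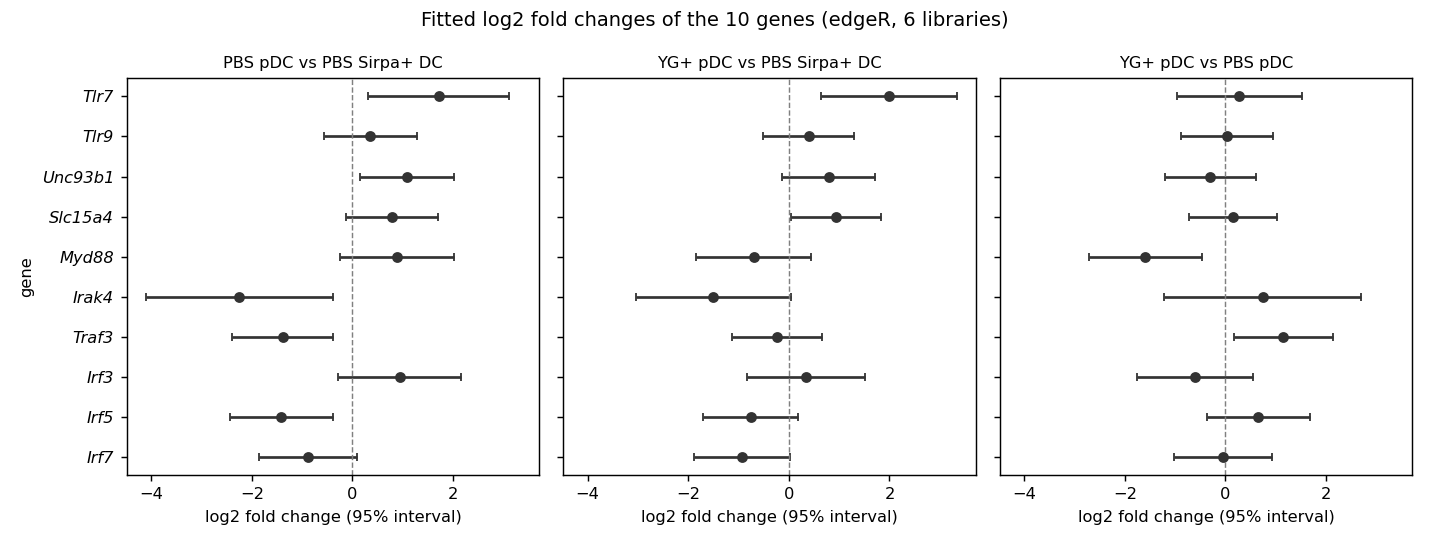
Fitted log2 fold change (x axis) with its 95% interval for the 10 genes in the 3 comparisons, first-named group over second, with a dashed line at 0. In PBS pDCs against Sirpa+ DCs the intervals of Tlr7, Unc93b1, Irak4, Traf3 and Irf5 leave out 0, and none of the 10 passed after adjustment over 8141 genes.

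Further down the route, Myd88 (chromosome 9, 119335934 to 119341411, minus strand), the adaptor of both receptors, was 26.7 and 17.9 CPM in YG+ pDCs (19 and 10 counts), 70.2 and 67.1 CPM in PBS pDCs (11 and 29 counts) and 38.1 and 35.9 CPM in Sirpa+ DCs (9 and 18 counts). The 3 groups did not overlap, with PBS pDCs highest and YG+ pDCs lowest. YG+ pDCs had 0.332 times the PBS pDC level (log2 -1.59 ± 0.51, -2.71 to -0.47, edgeR adjusted p = 0.315), which was the smallest unadjusted p of a member in that comparison at 0.00944 and ranked 233rd of 8141 genes. Acaa1a, which shares exon sequence with Myd88 on the other strand, was 30.9 and 21.5 CPM in the YG+ pDCs, 63.8 and 39.3 CPM in PBS pDCs and 29.6 and 51.8 CPM in Sirpa+ DCs, also lower in both YG+ than in both PBS pDC libraries, and its part in the Myd88 values was not tested. All Myd88 values rest on 9 to 29 counts a library. Against Sirpa+ DCs, Myd88 was at 0.89 ± 0.52 in PBS pDCs (-0.24 to 2.02, edgeR adjusted p = 0.336) and -0.70 ± 0.52 in YG+ pDCs (-1.85 to 0.44, adjusted p = 0.463).

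The kinase gene Irak4 (chromosome 15, 94543643 to 94581815, plus strand) was the least abundant of the 10 per exon length in both pDC groups. It had 16 and 5 counts in YG+ pDCs (22.5 and 8.95 CPM), 0 and 6 in PBS pDCs (0 and 13.9 CPM) and 11 and 23 in Sirpa+ DCs (46.5 and 45.9 CPM). Both Sirpa+ DC libraries were above all pDC libraries, and the count of 0 in PBS pDC replicate 1 allowed up to 19.1 CPM. The log2 fold change was -2.25 ± 0.85 in PBS pDCs against Sirpa+ DCs (-4.11 to -0.38, edgeR adjusted p = 0.126, with 0.0451 without PBS pDC replicate 2, which leaves only the library at 0, and 0.136 to 0.383 without any other library). In YG+ pDCs against Sirpa+ DCs it was -1.50 ± 0.70 (-3.04 to 0.032, adjusted p = 0.231), and between the pDC groups 0.74 ± 0.89 (-1.22 to 2.70, adjusted p = 0.800). Twf1, its opposite-strand partner, was 57.6 and 55.5 CPM in the YG+ pDCs, 31.9 and 30.1 CPM in PBS pDCs and 25.4 and 29.9 CPM in Sirpa+ DCs.

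Traf3 (chromosome 12, 111166370 to 111267153, plus strand), the ubiquitin ligase on the interferon branch, was lowest in PBS pDCs. It was 96.9 and 134 CPM in the YG+ pDCs, 38.3 and 60.2 CPM in PBS pDCs (6 and 26 counts) and 135 and 136 CPM in Sirpa+ DCs. PBS pDCs lay apart from both other groups, while the second YG+ pDC library reached nearly to the Sirpa+ DCs. PBS pDCs had a log2 fold change of -1.39 ± 0.46 against Sirpa+ DCs (-2.39 to -0.39, edgeR adjusted p = 0.0760), the smallest adjusted p of any member in that comparison. YG+ pDCs were at 1.15 ± 0.45 against PBS pDCs (0.17 to 2.14, adjusted p = 0.366) and at -0.23 ± 0.41 against Sirpa+ DCs (-1.13 to 0.66, adjusted p = 0.778). Macrophage and monocyte markers were 176 and 351 CPM in PBS pDCs and 633 and 1537 CPM in the YG+ pDCs, with Mertk and Fcgr1 at 0 in PBS pDCs, and mature DC markers were 578 and 733 against 1405 and 1863 CPM. Their part in the Traf3 values was not tested.

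Of the IRF genes, Irf5 (chromosome 6, 29526625 to 29541871, plus strand), which acts in inflammatory cytokine induction, was 113.8 and 91.3 CPM in the YG+ pDCs, 38.3 and 83.3 CPM in PBS pDCs (6 and 36 counts) and 157 and 189 CPM in Sirpa+ DCs. The groups were separate, in the order Sirpa+ DCs, YG+ pDCs, PBS pDCs. Against Sirpa+ DCs the log2 fold change was -1.41 ± 0.47 in PBS pDCs (-2.44 to -0.39, edgeR adjusted p = 0.0784) and -0.76 ± 0.43 in YG+ pDCs (-1.71 to 0.19, adjusted p = 0.329). The first value moved to -2.23 without PBS pDC replicate 2 (edgeR adjusted p = 0.0228) and to -1.06 without PBS pDC replicate 1 (0.124), and the adjusted p was 0.147 to 0.314 without any other library. YG+ pDCs over PBS pDCs were at 0.66 ± 0.46 (-0.36 to 1.67, adjusted p = 0.635). Tnpo3, whose exons run under 14.1% of Irf5's, was 174 and 152 CPM in the YG+ pDCs, 89.3 and 146 CPM in PBS pDCs and 542 and 351 CPM in Sirpa+ DCs. Its groups thus stood in the same order as those of Irf5, and its part in the Irf5 values was not tested. Irf5 and Irf7 were highest where the macrophage and monocyte and the mature DC markers were highest, and the part of those markers was not tested.

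Irf7 (chromosome 7, 141262706 to 141266481, minus strand), the factor on which interferon induction by these receptors depends, had its highest values outside the pDC groups. It was 173 and 200.4 CPM in the YG+ pDCs, 134 and 243 CPM in PBS pDCs and 292 and 419 CPM in Sirpa+ DCs, so that both Sirpa+ DC libraries exceeded every pDC library. The log2 fold change against Sirpa+ DCs was -0.89 ± 0.44 in PBS pDCs (-1.86 to 0.086, edgeR adjusted p = 0.253) and -0.94 ± 0.43 in YG+ pDCs (-1.89 to 0.018, adjusted p = 0.229, and 0.0493 in a fit of only those 4 libraries). Between the pDC groups it was -0.048 ± 0.44 (-1.02 to 0.92, adjusted p = 0.981). Irf7 is also interferon-inducible in many cell types. The partner Phrf1 was 183 and 143 CPM in the YG+ pDCs, 70.2 and 153 CPM in PBS pDCs and 88.9 and 93.7 CPM in Sirpa+ DCs.

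Irf3 (chromosome 7, 44997648 to 45002848, plus strand), which serves mainly the TLR3, TLR4 and cytosolic routes, was 44.9 and 48.3 CPM in the YG+ pDCs, 95.7 and 53.2 CPM in PBS pDCs (15 and 23 counts) and 21.2 and 47.8 CPM in Sirpa+ DCs (5 and 24 counts). PBS pDCs were separate from both other groups and the latter overlapped. Its partner Bcl2l12 had 4 and 6 counts in PBS pDCs and 0 to 2 in the other libraries. Against Sirpa+ DCs it was at 0.94 ± 0.56 in PBS pDCs (-0.28 to 2.17, edgeR adjusted p = 0.347) and 0.34 ± 0.53 in YG+ pDCs (-0.83 to 1.52, adjusted p = 0.749). YG+ against PBS pDCs gave -0.60 ± 0.53 (-1.75 to 0.56, adjusted p = 0.710).

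**Figure D3:**
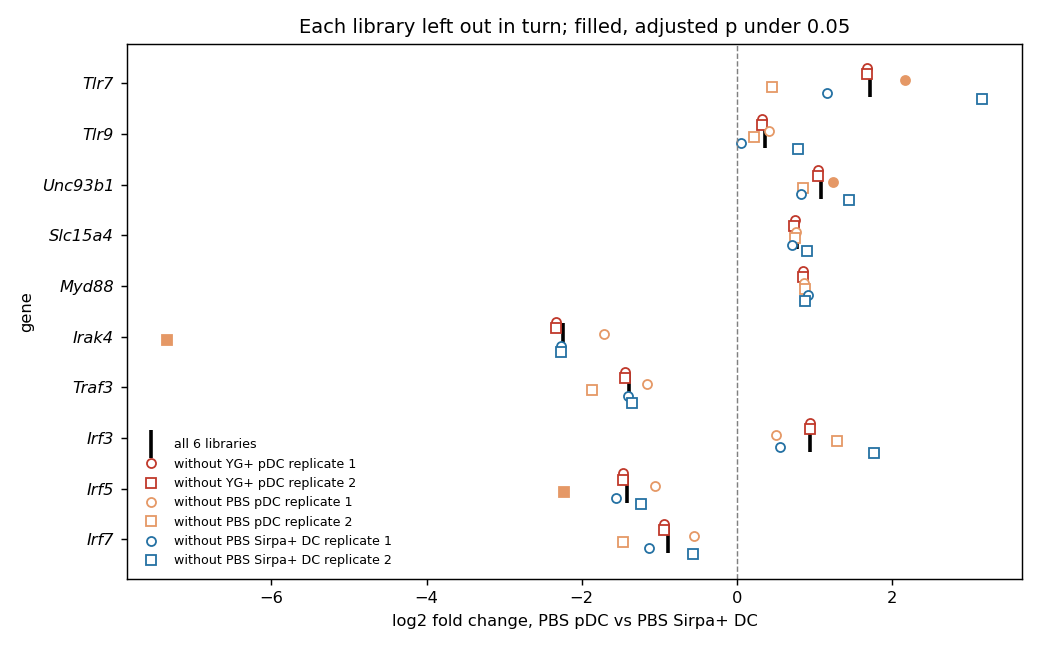
Log2 fold change of PBS pDCs over PBS Sirpa+ DCs for the 10 genes (x axis) with all 6 libraries (black bar) and with each library left out (circles, replicate 1; squares, replicate 2), filled where the edgeR adjusted p was under 0.05. Tlr7 and Unc93b1 passed without PBS pDC replicate 1, and Irf5 and Irak4 without PBS pDC replicate 2, where the Irak4 value of -7.34 stands against a single library with 0 counts and is no bound.

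Counted by separation of the libraries, 5 members were higher in both PBS pDC libraries than in both Sirpa+ DC libraries (Tlr7, Unc93b1, Slc15a4, Myd88 and Irf3), as were 22.9% of tested genes. Another 4 were lower in both (Irak4, Traf3, Irf5 and Irf7), as were 24.2% of tested genes. YG+ pDCs were above Sirpa+ DCs for 3 members (Tlr7, Unc93b1 and Slc15a4; 32.8% of tested genes) and below for 5 (Myd88, Irak4, Traf3, Irf5 and Irf7; 29.1%). Those comparisons share the Sirpa+ DC libraries. YG+ pDCs were above PBS pDCs for Traf3 and Irf5 (26.5% of tested genes) and below for Myd88 and Irf3 (19.3%).

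Per kilobase of exon, Unc93b1 had the highest level of the 10 genes in each group, at 173 ± 23.6 (SD, n = 2) CPM per kb in the YG+ pDCs, 212 ± 34.4 in the PBS pDCs and 99.0 ± 27.5 in the Sirpa+ DCs. In both pDC groups Tlr9 came next (99.1 ± 11.1 and 96.4 ± 6.67 CPM per kb) and Irf7 after it (49.4 ± 5.17 and 49.9 ± 20.4). In Sirpa+ DCs, Irf7 (94.1 ± 23.7 CPM per kb) and Tlr9 (74.7 ± 24.8) followed Unc93b1. In replicate 1 and 2 of that group Unc93b1 was 79.6 and 118 CPM per kb, Irf7 77.3 and 111, and Tlr9 57.2 and 92.3. Unc93b1 thus came first in each library, narrowly over Irf7, and these differences were not tested. Tlr7 was last in Sirpa+ DCs at 7.66 ± 6.44 CPM per kb and sixth in both pDC groups (33.8 ± 1.13 and 26.1 ± 19.2). Exon lengths are those of GENCODE M21, since the annotation behind the counts is not given.

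**Figure D4:**
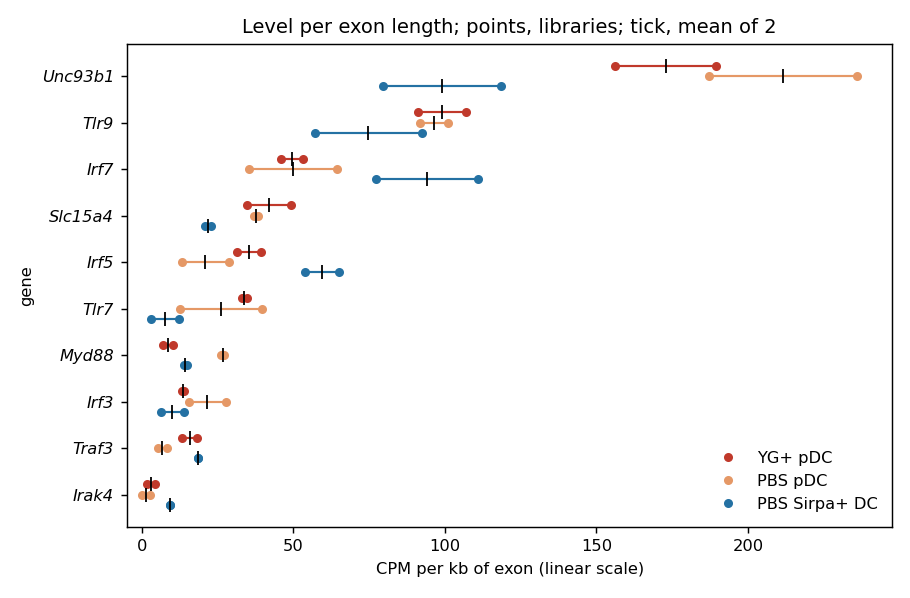
Level per kilobase of exon (CPM per kb, linear axis) of the 10 genes, with a point for each library, a line over the range of the group and a black tick at the mean of 2. Unc93b1 was highest in each group by mean, and Irf7 and Irf5 lay farther to the right in Sirpa+ DCs (blue) than in the pDC groups.

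Upstream sequence, the 250 bases before the RefSeq start (GRCm38.p6), was matched for 8 of the 10 genes, all but Tlr7 and Unc93b1. Printed are the 3 windows that no annotated exon overlaps, because they set the gene whose groups all overlapped, Tlr9, beside 2 that were lowest in PBS pDCs, Traf3 and Irf5. Capitals mark CANNTG, the E-box read by E proteins such as TCF4, and GAGGAA, a core of PU.1 and SPIB sites. Both strands were searched.
Tlr9, chr9:106222348-106222597, plus strand: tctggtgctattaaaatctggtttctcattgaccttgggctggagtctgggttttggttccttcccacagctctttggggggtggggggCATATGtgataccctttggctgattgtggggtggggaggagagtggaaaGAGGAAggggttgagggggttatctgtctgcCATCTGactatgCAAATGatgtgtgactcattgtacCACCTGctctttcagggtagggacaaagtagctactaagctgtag
Traf3, chr12:111166120-111166369, plus strand: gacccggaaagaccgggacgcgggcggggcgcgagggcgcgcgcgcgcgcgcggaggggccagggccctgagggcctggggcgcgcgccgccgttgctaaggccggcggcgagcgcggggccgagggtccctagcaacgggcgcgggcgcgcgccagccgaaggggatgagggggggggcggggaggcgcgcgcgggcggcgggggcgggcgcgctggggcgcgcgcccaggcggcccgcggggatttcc
Irf5, chr6:29526375-29526624, plus strand: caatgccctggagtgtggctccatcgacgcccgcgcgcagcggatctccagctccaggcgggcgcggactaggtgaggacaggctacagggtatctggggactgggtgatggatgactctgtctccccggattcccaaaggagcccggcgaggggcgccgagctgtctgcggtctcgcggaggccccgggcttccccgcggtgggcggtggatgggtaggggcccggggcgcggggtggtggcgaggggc
The Tlr9 window holds 4 E-boxes, starting 161, 81, 69 and 45 bases before the start, and 1 GAGGAA, while the windows of Traf3 and Irf5 hold neither. E-boxes are not particular to Tlr9 here: 5 of the 8 windows hold CANNTG, also those of Myd88, Slc15a4, Irf3 and Irf7. GAGGAA is in 1 of the 8. Of 32851 windows of this length, 66.2% hold CANNTG and 23.3% hold GAGGAA. The windows of Traf3 and Irf5 are 85.2% and 72% G or C, that of Tlr9 50.4%, and the median of all windows was 52.4%. Of the 8 windows, that of Myd88 alone holds 2 copies of GAAA set 2 bases apart, a repeat bound by IRF factors, which 2.98% of all windows hold. The Myd88 window, unlike the 3 printed in full, is overlapped by an annotated Myd88 exon. Its match is shown in capitals in 30 bases of chr9:119340039-119340068, minus strand: gagcttctcgGAAAGCGAAAgaaggagggg. For NF-kB only a fixed sequence was searched, with no variable letters, and it was in 0 of the 8 and in 0.140% of all windows. Variants of that sequence were not searched, so the count of 0 does not show that the windows lack NF-kB sites. A match describes these letters only.

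Among 73 other genes of nucleic acid sensing and TLR signalling, in 5 lists, 56 were tested. In PBS pDCs against Sirpa+ DCs the edgeR test called 2 of these higher and 7 lower, beside 4.54% and 6.89% of all tested genes. It called 3 higher and 1 lower in YG+ pDCs against Sirpa+ DCs (3.07% and 4.09%) and 0 in YG+ against PBS pDCs, where no gene was called at all.

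For receptor handling, 11 of 15 listed genes were tested, with 1 called higher and 3 lower in PBS pDCs (median log2 fold change -0.12, 0.080 over all genes). Ctsl, cathepsin L, a protease that can cleave endosomal TLRs, was 313 and 278 CPM in PBS pDCs, 218 and 270.2 CPM in YG+ pDCs and 21.2 and 37.9 CPM in Sirpa+ DCs. All 4 pDC libraries were far above the others, at a log2 fold change of 3.23 ± 0.48 in PBS pDCs (edgeR adjusted p = 0.00217) and 2.96 ± 0.47 in YG+ pDCs (adjusted p = 0.00513), and Gm47123 lies opposite to 26.8% of its exon length in the annotation. Ctss and Lgmn, which also encode endosomal proteases, were lower in PBS pDCs than in Sirpa+ DCs. Ctss, cathepsin S, was 236 and 278 CPM in PBS pDCs, 829 and 1410 CPM in Sirpa+ DCs and 594 and 469 CPM in YG+ pDCs (PBS pDCs against Sirpa+ DCs -2.12 ± 0.46, edgeR adjusted p = 0.0136). Lgmn, the asparagine endopeptidase, was 134 and 139, 516 and 718, and 305 and 166 CPM in the same order (-2.18 ± 0.47, adjusted p = 0.0137). Cd14, a co-receptor of TLR4 and endosomal TLRs, was 0 and 11.6 CPM in PBS pDCs and 106 and 128 CPM in Sirpa+ DCs (-3.82 ± 0.89, adjusted p = 0.0194). These 3 are also abundant in macrophages, whose markers were highest in Sirpa+ DCs, and the part of those cells was not tested. 5430427O19Rik, named by its identifier only, was 71.6 and 111 CPM in the YG+ pDCs, 57.4 and 94.9 CPM in PBS pDCs and 25.4 and 19.9 CPM in Sirpa+ DCs. It was called in YG+ pDCs against Sirpa+ DCs (2.03 ± 0.52, edgeR adjusted p = 0.0368) and missed the threshold in PBS pDCs (1.83 ± 0.54, adjusted p = 0.0507). The remaining endosomal receptors were scarce: Tlr3, Tlr8 and Tlr13 had 0 to 15 counts a library and were not tested.

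For adaptors and kinases, 16 of 18 were tested (median log2 fold change of PBS pDCs over Sirpa+ DCs -0.037). Traf6, the ubiquitin ligase downstream of IRAK4, was the only call, at 12.8 and 46.3 CPM in PBS pDCs (2 and 20 counts), 157 and 128 CPM in Sirpa+ DCs and 98.3 and 111 CPM in YG+ pDCs. PBS pDCs were lower than Sirpa+ DCs (-2.04 ± 0.53, edgeR adjusted p = 0.0297), and, as for Traf3, YG+ pDCs lay between (1.61 ± 0.52 over PBS pDCs, adjusted p = 0.315). Of transcription factors, interferons and cytokines, 15 of 22 were tested (median 0.12). Irf8, which pDCs and type 1 conventional DCs express, was 1199 and 1678 CPM in PBS pDCs, 1117 and 1559 CPM in YG+ pDCs and 262 and 335 CPM in Sirpa+ DCs, and was called in both groups against Sirpa+ DCs (2.26 ± 0.45 and 2.16 ± 0.45, edgeR adjusted p = 0.00942 and 0.0155). Rel, an NF-kB subunit, was lower in PBS pDCs (185 and 248 CPM) than in Sirpa+ DCs (745 and 774 CPM; -1.80 ± 0.42, adjusted p = 0.0192), with 494 and 431 CPM in YG+ pDCs. Il12b, a subunit of interleukin 12, had 0 counts in both PBS pDC libraries, 8 and 10 in YG+ pDCs and 8 and 15 in Sirpa+ DCs, so that Sirpa+ DCs were at least 6.26-fold higher than PBS pDCs at 3 counts over the group (edgeR adjusted p = 0.0231). The number of calls over the 5 lists rested on single libraries. For PBS pDCs against Sirpa+ DCs it was 9 with all libraries, fewer without either Sirpa+ DC library, and 5 in a fit of only the 4 libraries compared. For YG+ pDCs against Sirpa+ DCs it was 4 with all libraries, 0 without either Sirpa+ DC library, 1 without YG+ pDC replicate 2, 11 without either PBS pDC library and 11 in a fit of only those 4.

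**Figure D5:**
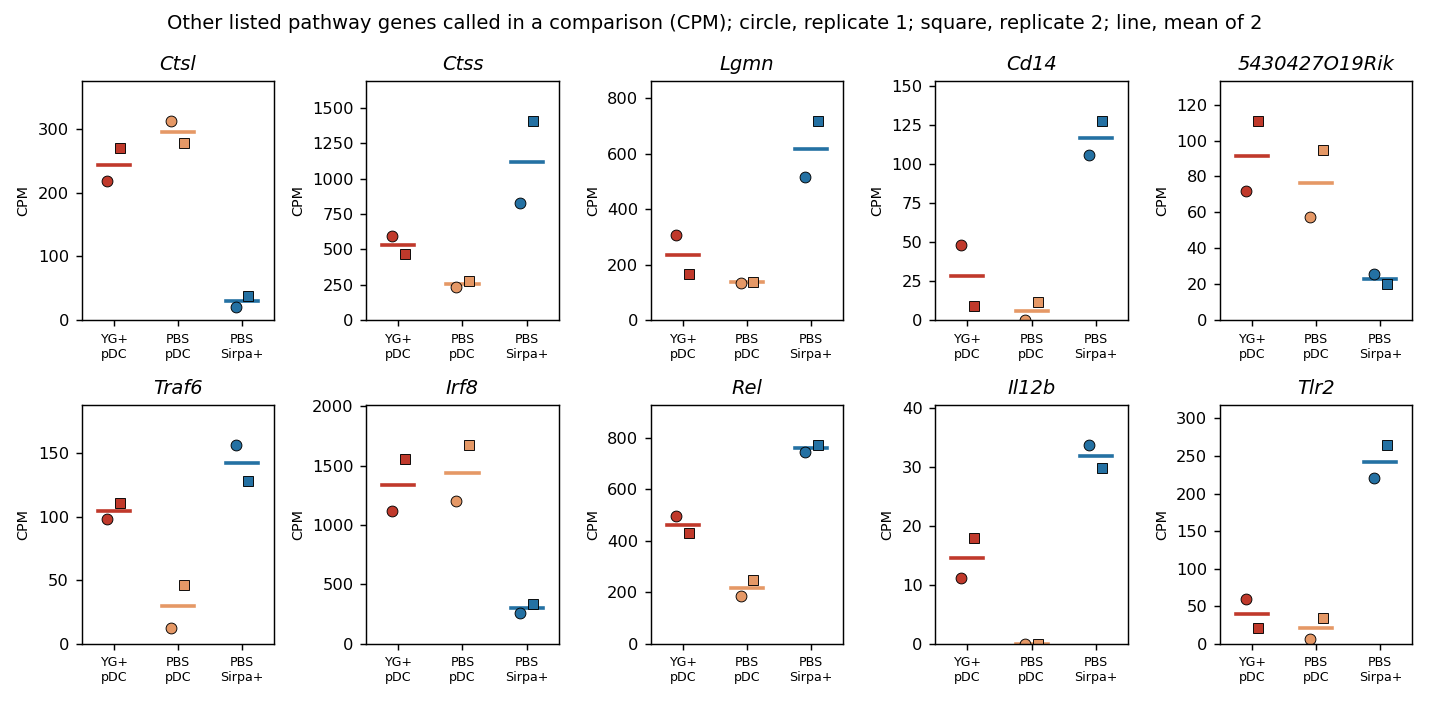
Normalised read count (CPM, linear axis from 0) in each library of the 10 other listed genes called in at least 1 comparison, with circles for replicate 1, squares for replicate 2 and a line at the mean of 2. Ctsl, Irf8 and 5430427O19Rik were higher in all pDC libraries than in Sirpa+ DCs, and the other 7 were highest in the Sirpa+ DC group by mean.

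The interferon genes at the end of the route were almost unread. Of 18 type I and type III interferon genes in the files, 4 had any count. Ifnb1 and every listed Ifna gene except Ifna13 were at 0 in all 6 libraries, and Ifna13 had 1 and 2 counts in the YG+ pDCs, 2 and 0 in PBS pDCs and 0 in Sirpa+ DCs. Ifna genes are near-identical copies, so reads that fit several of them may lie among the records placed more than once. Ifnl2 and Ifnl3 had 3 and 2 counts, both in Sirpa+ DC replicate 1. Ifnk, an interferon known from keratinocytes, was 85.7 and 141 CPM in the YG+ pDCs, 325 and 90.2 CPM in PBS pDCs and 131 and 45.9 CPM in Sirpa+ DCs, from 23 to 79 counts a library. PBS pDC replicate 1, the shallowest library, was the highest, and the groups overlapped. Its counts were 51 in that library and 61 in YG+ pDC replicate 1, at gene totals of 177844 and 713966. The strand question bears on Ifnk too, and its opposite-strand overlap was not looked up. Whether these reads come from Ifnk transcripts was not tested. At this depth the other interferon genes had few or no counts, which does not show that they were not transcribed.

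No cytosolic sensor was called (9 of 10 tested, median log2 fold change of PBS pDCs over Sirpa+ DCs -0.70). The 2 smallest p in that list belonged to Trex1, a DNA exonuclease, in YG+ against PBS pDCs (-1.25 ± 0.44, edgeR adjusted p = 0.333), and to Samhd1, a nucleotide hydrolase, in YG+ pDCs against Sirpa+ DCs (-1.22 ± 0.46, adjusted p = 0.144). Of 8 genes of surface TLRs and their partners 5 were tested (median -0.44), and Tlr2, a receptor for bacterial lipoproteins, was lower in both pDC groups. It was 6.38 and 34.7 CPM in PBS pDCs, 59.0 and 21.5 CPM in YG+ pDCs and 220.0 and 265 CPM in Sirpa+ DCs (-3.28 ± 0.65 and -2.57 ± 0.56 against Sirpa+ DCs, edgeR adjusted p = 0.00895 and 0.0201).

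Genes with patterns nearest to those of 3 members were found by the root mean square difference of log2 CPM centred on the mean of the 6 libraries, among 6978 candidates. Nearest to Tlr7 were Mtpap (0.12), Cbx5 (0.15) and Cd180 (0.21), against a root mean square deviation of 1.15 for Tlr7 itself. Cd180, a surface TLR homologue of B cells and other antigen-presenting cells, averaged 180 CPM in the YG+ pDCs, 184 CPM in PBS pDCs and 47.6 CPM in Sirpa+ DCs. Nearest to Tlr9 were Zzef1 (0.023), Dbnl (0.093) and Rnf2 (0.094), with 0.29 for Tlr9 itself, so these are genes with small deviations too. Nearest to Irf7 were Gsn (0.049), Myl6 (0.12) and Lasp1 (0.14), with 0.52 for Irf7, and Gsn, an actin-severing protein, averaged 214, 213 and 429 CPM in that order of groups. The 6 values share libraries and depth.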

How the data were processed

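RNA was measured in 6 libraries each built from 5 ng of total RNA (Ovation SoLo RNA-Seq Mouse), per the labels' protocols. The deposited values are raw whole-number counts of reads for each gene symbol. Per the submitters' processing notes, bcl2fastq 2.17 was used and the build was mm10. Not given in the sources used here are the aligner, counting program, annotation and strand setting. Summary lines that name no gene held 97.7% to 99.5% of records and were left out of library sizes and tests.

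Genes passing edgeR's filterByExpr (8141) were scaled with edgeR's TMM factors and tested with edgeR 4.0.16 quasi-likelihood tests in R 4.3.3, all 6 libraries in 1 fit of group means with 3 residual degrees of freedom and no block. Adjusted p-values are Benjamini-Hochberg over all 8141 genes, and a call is an adjusted p under 0.05. CPM is the count divided by the TMM-scaled total in tested genes, times 1000000, and CPM per kb divides it by the merged exon length in GENCODE M21 (GRCm38). Standard errors are the log2 fold change over the square root of F, and intervals are 95%. Alternatives were 3 other scalings, 2 other filters, removal of 4 abundant transcripts, DESeq2 1.42.0, limma-voom (limma 3.58.1), a replicate block, each library left out, and a fit limited to the 4 libraries of a comparison. Other tools were Python 3.11.15, pandas 2.3.3 and matplotlib 3.10.9.

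The 10 genes and all gene lists were chosen with earlier results of these data known. Tlr3 and Irf4 stand in both a pathway list and a marker list. All 10 genes are named. A gene of another list is named with its values where it was called in any comparison or, in a list with no call, if its p was among the 2 smallest. Untested receptors and interferon genes, Cd180 and the levels of the matched-pattern genes were described after their values were seen. For Tlr7, Tlr9 and Irf7, the 3 genes with the nearest pattern were taken from tested genes averaging 20 CPM or more, without predicted genes and olfactory receptors. Upstream sequences are RefSeq's (GRCm38.p6), and 8 of the 10 genes matched by symbol.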

Additional observations from a re-analysis of the deposited data

How the results depend on the processing

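Of 473 values of the 10 genes under 16 alternatives a comparison, 449 kept direction and side of the threshold, 11 passed it and 13 reversed. PBS pDCs against Sirpa+ DCs gave 931 called genes, 580 with only those 4 libraries and 214 to 1297 with a library left out (316 and 214 without Sirpa+ DC replicate 1 and 2), and 0 members, 1 with no filter and 0 to 2 with a library left out. YG+ pDCs against PBS pDCs gave 0 genes (929 at an unadjusted p under 0.05; limma-voom 0), 141 with no filter, 135 with DESeq2 and 0 to 870 with a library left out (14 without YG+ pDC replicate 2, 3 and 870 without PBS pDC replicate 1 and 2), and 0 members throughout. YG+ pDCs against Sirpa+ DCs gave 583 genes, 894 with no filter, 1480 with only those 4 libraries and 69 to 1487 with a library left out (for replicate 1 and 2, 69 and 115 without Sirpa+ DCs, 271 and 176 without YG+ pDCs, 1487 and 1467 without PBS pDCs), and 0 members, 1 with no filter, 2 with those 4 libraries and 0 to 1 with a library left out. The causes were not tested.

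Reversals in YG+ against PBS pDCs included Tlr9 and Irf7. Tlr9 was at -0.039 with edgeR's RLE scaling, -0.037 with only those 4 libraries and -0.048 to 0.17 with a library left out. Irf7 was at 0.011 with no filter, 0.020 with the block and -0.39 to 0.51 with a library left out. With a library left out, Irak4 ranged from -0.018 to 5.83, Slc15a4 from -0.088 to 0.40, Tlr7 from -0.24 to 1.47 and, in YG+ pDCs against Sirpa+ DCs, Irf3 from -0.070 to 1.13. None of these was called.

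The groups share replicate numbers 1 and 2, but deviations of same-numbered libraries correlated at -0.12 (YG+ with PBS pDCs), -0.099 (YG+ pDCs with Sirpa+ DCs) and 0.30 (PBS pDCs with Sirpa+ DCs) across genes. The labels name no shared animals, so no pairing was assumed, and whether both PBS groups share animals is not settled. The replicate block gave 942, 0 and 635 called genes (PBS pDCs against Sirpa+ DCs, YG+ against PBS pDCs, YG+ pDCs against Sirpa+ DCs) and 0, 0 and 1 members, the last being Tlr7. Depth limits Irak4, Myd88, Irf3 and, in Sirpa+ DCs, Tlr7, at 0 to 32 counts a library. It also limits Traf3, Irf5 and Tlr7 in PBS pDC replicate 1, at 6, 6 and 8 counts.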

Other observations

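Ratios within a library, which scaling cannot move, set the receptors and factors of the route against each other. Per exon length, Tlr9 was 2.76 and 3.09 times Tlr7 in YG+ pDCs, 7.34 and 2.55 times in PBS pDCs and 18.4 and 7.56 times in Sirpa+ DCs. The highest ratio rests on 3 Tlr7 counts and the ratio of PBS pDC replicate 1 on 8. Irf7 was 3.50 and 3.78 times Irf3 per exon length in YG+ pDCs, 1.28 and 4.16 times in PBS pDCs and 12.6 and 7.98 times in Sirpa+ DCs. Each Sirpa+ DC library lay above each pDC library, but the ratio of 12.6 rests on 5 Irf3 counts. The ratio of 1.28, of PBS pDC replicate 1, rests on 15 Irf3 and 21 Irf7 counts. Irf7 over Irf5 was 1.17 and 1.69 in YG+ pDCs, 2.69 and 2.24 in PBS pDCs and 1.43 and 1.70 in Sirpa+ DCs. Unc93b1 counts were 1.05 and 1.12 times those of Tlr7 and Tlr9 together in YG+ pDCs, 1.53 and 1.39 times in PBS pDCs and 1.14 and 0.968 times in Sirpa+ DCs. These are values of 2 libraries a group, chosen after the levels were seen and not tested.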
